A study of Mus musculus with 8 samples.

Results

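Chemokine receptors are G protein-coupled receptors that guide T cells toward the chemokines made by particular tissues. On ligand binding they signal mainly through Gi proteins, and they are switched off by receptor kinases, arrestins and RGS proteins. In regulatory T cells the set of receptors on the surface is known to steer the cells to lymphoid organs, skin, gut or inflamed sites. The receptors described here are Ccr2, Ccr4, Ccr6, Ccr8, Ccr9, Cxcr3, Cxcr4, Cxcr5 and Cxcr6, which are the chemokine receptors of T cells other than Ccr7, and they were taken from the expression table by gene symbol. All 9 were found among the 23361 symbols.

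RNA sequencing was done on induced regulatory T cells (iTreg) made from naive CD4+ T cells of wild-type Foxp3-RFP reporter mice, in which a red fluorescent protein marks cells that express Foxp3. Per the paper's methods the mice were on the B6 background and 7 to 8 weeks old, while the number of mice behind each library was not given in the sources used here. The cells of both groups were activated with anti-CD3/CD28 beads at 1 bead per 5 cells, with IL-2 and with TGF-β at 2 ng/ml, and viable Foxp3-RFP+ cells were then sorted into Nrp-1+ iTreg (n = 4 libraries) and Nrp-1- iTreg (n = 4 libraries). IL-2 is given as 50 U/ml in the labels and as 10 ng/ml in the methods, and the time is given as 3 days of culture and also as day 5. The labels call the libraries biological replicates 1 to 4 but do not say that they came from separate mice or cultures, so the p-values measure the spread between these libraries. The values are FPKM, fragments per length of transcript and per mapped fragments of the library, as the authors deposited them.

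Nrp1, whose protein was the basis of the sort, had means of 21.5 ± 0.709 FPKM in the Nrp-1+ and 4.95 ± 0.262 FPKM in the Nrp-1- libraries (SD, n = 4 each), so the libraries followed their labels. All 7 T-cell and regulatory T-cell markers checked (Cd3d, Cd3e, Cd3g, Cd4, Foxp3, Il2ra and Ctla4) were above 100 FPKM in every library. No 2 libraries held identical values. The relative depth, read from genes of very low FPKM and set to 1 in replicate 1 of Nrp-1+ iTreg, was 0.994 to 1.22 among the Nrp-1+ and 0.810 to 1.24 among the Nrp-1- libraries. The share of summed FPKM held by short RNA genes varied between 1.77% and 43.9% among libraries.

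Cxcr4, Ccr8 and Ccr4 were the 3 most abundant of the 9 receptors, and all 3 were higher in Nrp-1+ iTreg, by 21.9%, 38.2% and 25.3%. Ccr9 was 29.5% lower. Cxcr3 and Ccr2 did not pass the test, and Ccr6, Cxcr5 and Cxcr6 were too low to read, meaning a mean under 1 FPKM over the 8 libraries. Of the 6 receptors with a mean of at least 1 FPKM, 3 were thus higher and 1 lower at an adjusted p under 0.05 by limma on log2(FPKM + 1). Over all 10467 genes tested in the same way, 20.9% were called higher and 20.0% lower, 40.9% in all, so a call by itself was common in this comparison. The median log2 fold change was 0.24 over the 6 receptors and -0.02 over all genes tested. None of the called receptors changed by 2-fold in mean FPKM. Of the 9 receptors, 4 were higher and 1 was lower without overlap between the groups, where 14.8% and 13.0% of the 16289 genes with any value did not overlap in these directions, 27.9% in all. Among the 6 receptors tested these were 3 and 1, beside 20.2% and 19.3% of the genes tested, 39.5% in all. These are bulk libraries, in which fewer cells that express a receptor and less RNA per cell cannot be told apart.

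**Figure D1:**
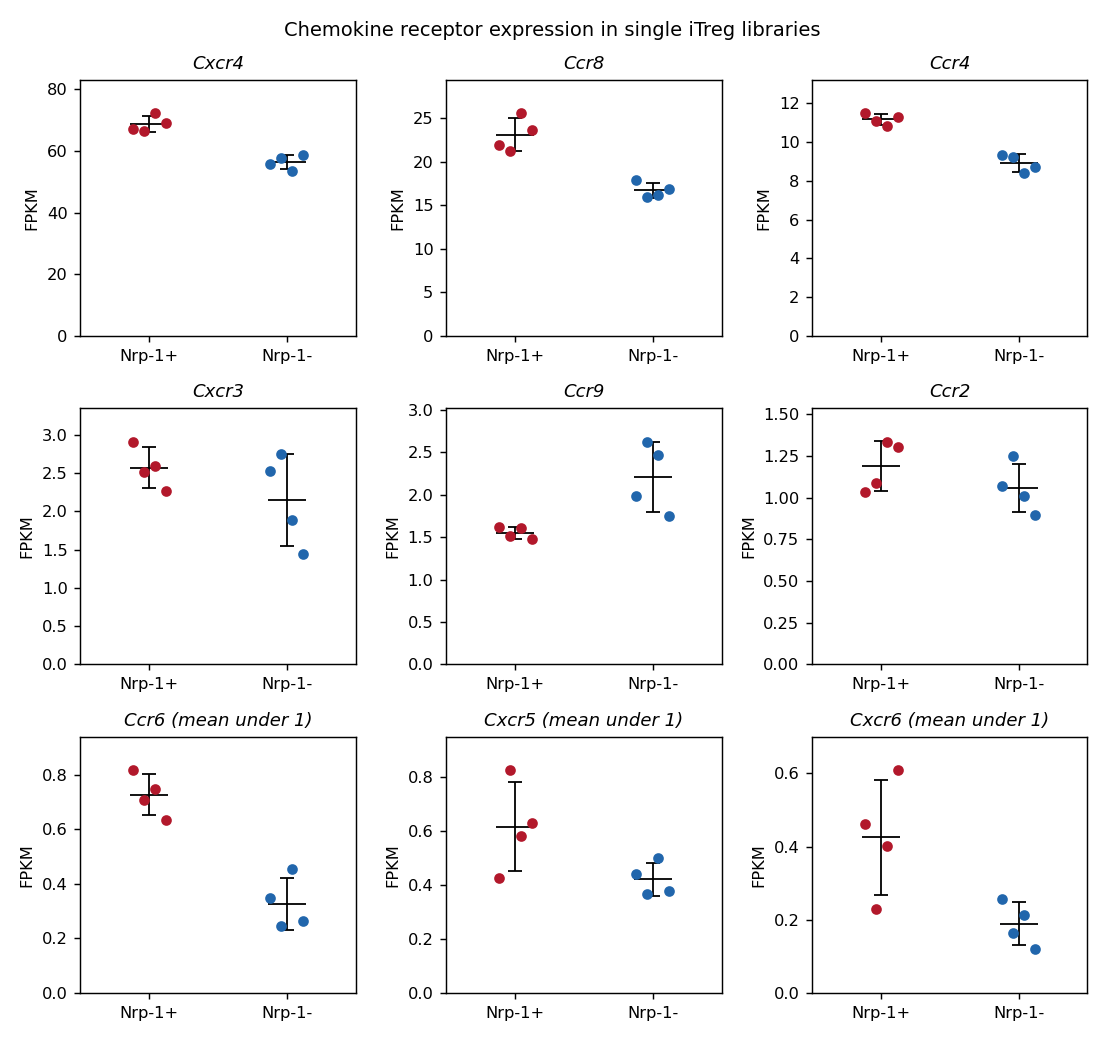
FPKM of the 9 chemokine receptors in each library, with Nrp-1+ iTreg in red and Nrp-1- iTreg in blue. Each point is 1 library, horizontal bars are means and whiskers are 1 SD (n = 4 per group), and every vertical axis starts at 0. The groups do not overlap for Cxcr4, Ccr8, Ccr4 and Ccr6, which are higher in Nrp-1+ iTreg, and for Ccr9, which is lower.

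The levels spanned a wide range. FPKM is per length, but a comparison between receptors is approximate, since the annotation and the assignment of reads in shared stretches are not given. The order of mean FPKM over the 8 libraries was Cxcr4 (62.6), Ccr8 (19.9), Ccr4 (10.0), Cxcr3 (2.36), Ccr9 (1.88), Ccr2 (1.12), Ccr6 (0.527), Cxcr5 (0.518) and Cxcr6 (0.307). Cxcr4 lay above 90.5% of the 16289 genes with any value, and Cxcr6 above 29.1%. Within each group, neighbours from Cxcr4 down to Cxcr3 did not overlap. Cxcr3 and Ccr9 overlapped in Nrp-1- iTreg, where their means were 2.15 and 2.20 FPKM, but not in Nrp-1+ iTreg, where Cxcr3 was at 2.57 FPKM and Ccr9 at 1.55 FPKM. Ccr6 and Cxcr5 overlapped in both groups, and Cxcr5 and Cxcr6 in Nrp-1+ iTreg.

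Cxcr4 binds Cxcl12 and is known for the homing and retention of lymphocytes in bone marrow. It was at 67.2, 66.5, 72.3 and 69.0 FPKM in replicates 1 to 4 of Nrp-1+ iTreg and at 55.8, 57.6, 53.5 and 58.7 FPKM in those of Nrp-1- iTreg. Every Nrp-1+ library was above every Nrp-1- library. The means were 68.7 ± 2.58 FPKM and 56.4 ± 2.29 FPKM (SD, n = 4 each), and limma gave a log2 fold change of 0.28 (SE 0.04, adjusted p = 0.000556). The exact two-sided permutation test of the means gave p = 0.0286, the smallest that 4 libraries against 4 allow.

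Ccr8, the receptor for Ccl1, is known from regulatory T cells of skin and tumors. Its values were 22.0, 21.3, 25.6 and 23.6 FPKM in the Nrp-1+ libraries and 17.9, 16.0, 16.1 and 16.9 FPKM in the Nrp-1- libraries, again with no overlap. The means were 23.1 ± 1.92 FPKM and 16.7 ± 0.855 FPKM (SD, n = 4 each), and the log2 fold change of 0.44 (SE 0.06, limma adjusted p = 0.000644) was the largest increase among the 6 receptors tested. The exact permutation p was 0.0286.

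Ccr4 binds Ccl17 and Ccl22 and is known for the entry of regulatory and Th2 cells into skin. It was at 11.5, 11.1, 10.8 and 11.3 FPKM in the Nrp-1+ libraries and at 9.32, 9.25, 8.38 and 8.72 FPKM in the Nrp-1- libraries. The groups did not overlap, and the spread within each was small beside the gap between them. The means were 11.2 ± 0.290 FPKM and 8.92 ± 0.448 FPKM (SD, n = 4 each), and limma gave a log2 fold change of 0.30 (SE 0.04, adjusted p = 0.000498, exact permutation p = 0.0286).

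Ccr9, the receptor for Ccl25, is known for the homing of T cells to the small intestine, and it was the only receptor of the 9 with a lower mean in Nrp-1+ iTreg. It was at 1.62, 1.51, 1.60 and 1.48 FPKM in the Nrp-1+ libraries and at 1.98, 2.62, 2.47 and 1.74 FPKM in the Nrp-1- libraries. The 4 Nrp-1+ libraries lay close together, while the Nrp-1- libraries were all higher and more spread. The means were 1.55 ± 0.0704 FPKM and 2.20 ± 0.411 FPKM (SD, n = 4 each), and limma gave a log2 fold change of -0.32 (SE 0.09, adjusted p = 0.0265, exact permutation p = 0.0286). The call was lost when replicate 2 or 4 of Nrp-1+ iTreg or replicate 2 or 3 of Nrp-1- iTreg was left out, with adjusted p values of 0.0566, 0.0568, 0.0571 and 0.0644 and the same direction. Ccr9 overlaps the long noncoding RNA gene Gm17021 in the RefSeq annotation, and how reads in the shared stretch were assigned is not given in the sources used here.

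**Figure D2:**
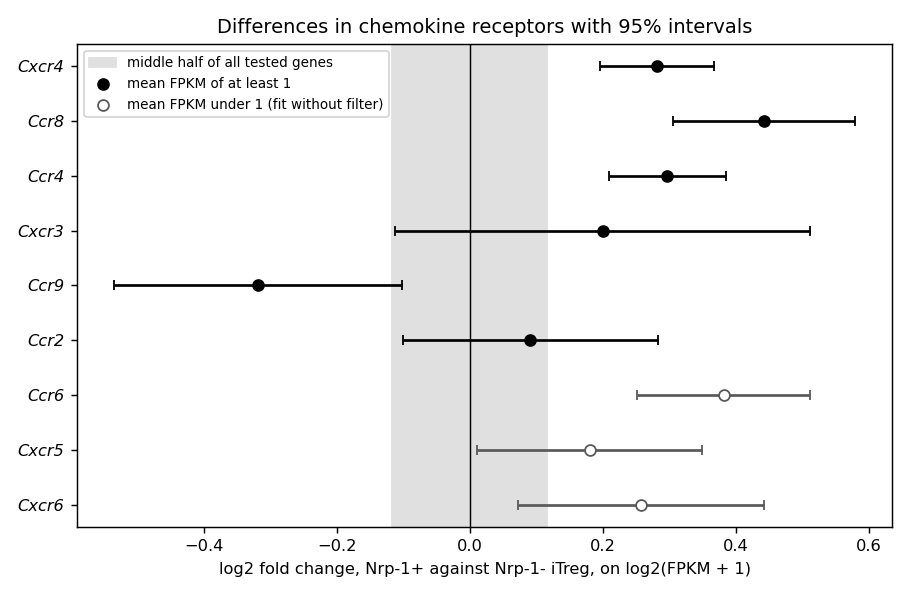
Log2 fold change of each receptor between Nrp-1+ and Nrp-1- iTreg on the log2(FPKM + 1) scale, with 95% intervals from limma. Filled points are receptors with a mean of at least 1 FPKM, open points those below it, fitted without the filter, and the grey band is the interquartile range of all genes tested, -0.12 to 0.12. The intervals of Cxcr4, Ccr8 and Ccr4 lie above the band, and that of Ccr9 lies below 0. Among the receptors too low to read, the interval of Ccr6 also lies above the band. Those of Cxcr6 and Cxcr5 lie above 0 but reach into the band.

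The stretches around the transcription start sites of the 4 receptors that passed the test are shown because these genes differed between the subsets. Each runs from 250 bases before to 50 bases after the start, 5′ to 3′ on the strand of the gene, from RefSeq on GRCm38.p6, and the submitters' processing notes also name GRCm38. Capitals mark matches on either strand to 6 motifs, those of AP-1, NFAT, Runx, forkhead, GATA and T-box factors. The Cxcr4 stretch is chr1:128592250-128592549 on the minus strand, that of Ccr8 chr9:120091883-120092182 on the plus strand, that of Ccr4 chr9:114496495-114496794 on the minus strand and that of Ccr9 chr9:123766961-123767260 on the plus strand. The RefSeq span of Ccr4 reaches upstream to position 114505476, so its window lies at a start site within the span and not at its outermost end.
Cxcr4: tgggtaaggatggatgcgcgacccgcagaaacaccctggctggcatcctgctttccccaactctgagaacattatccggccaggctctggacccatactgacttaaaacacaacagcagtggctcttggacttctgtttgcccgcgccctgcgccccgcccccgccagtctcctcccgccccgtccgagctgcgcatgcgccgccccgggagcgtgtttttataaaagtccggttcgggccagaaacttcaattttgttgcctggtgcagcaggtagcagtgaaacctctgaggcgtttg
Ccr8: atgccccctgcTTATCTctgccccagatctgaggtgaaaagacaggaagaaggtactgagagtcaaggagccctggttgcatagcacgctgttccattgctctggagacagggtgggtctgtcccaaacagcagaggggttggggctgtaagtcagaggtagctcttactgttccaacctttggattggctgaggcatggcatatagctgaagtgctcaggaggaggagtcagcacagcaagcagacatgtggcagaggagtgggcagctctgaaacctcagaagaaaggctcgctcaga
Ccr4: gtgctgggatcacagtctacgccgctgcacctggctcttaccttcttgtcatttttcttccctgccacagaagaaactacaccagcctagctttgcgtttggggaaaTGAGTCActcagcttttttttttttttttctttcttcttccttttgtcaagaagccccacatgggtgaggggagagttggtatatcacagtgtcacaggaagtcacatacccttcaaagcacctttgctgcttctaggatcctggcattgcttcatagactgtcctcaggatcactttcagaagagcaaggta
Ccr9: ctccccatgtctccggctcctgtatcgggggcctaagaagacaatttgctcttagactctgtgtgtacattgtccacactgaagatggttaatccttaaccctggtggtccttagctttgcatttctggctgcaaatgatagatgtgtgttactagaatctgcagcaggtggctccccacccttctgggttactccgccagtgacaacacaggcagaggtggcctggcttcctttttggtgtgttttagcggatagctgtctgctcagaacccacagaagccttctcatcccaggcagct

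Ccr4 held an AP-1 match (TGANTCA) that begins at position -143 from the start site, a motif found in 7.81% of the 32851 promoters of the table. Ccr8 held a match on the opposite strand to the GATA motif AGATAA at position -239, a motif found in 11.2% of all promoters. The Cxcr4 and Ccr9 stretches held none of the 6 motifs. The NFAT motif GGAAAA was found in 23.4% of all promoters and the Runx motif TGTGGT in 16.8%. The forkhead motif GTAAACA was found in 3.65% and the T-box motif TCACAC in 14.5%. Matches of different motifs could overlap. The Cxcr4 stretch was the richest in CG dinucleotides of the 4, with 20 and a GC content of 59.3%, whereas the others held 2 to 4. Such matches describe the letters in these windows only. The table held entries for 8 of the 9 receptors, with Cxcr5 the one without.

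Cxcr3 binds Cxcl9, Cxcl10 and Cxcl11 and is known from Th1 cells and from regulatory T cells that control them. Its values were 2.91, 2.52, 2.59 and 2.27 FPKM in the Nrp-1+ libraries and 2.52, 2.75, 1.88 and 1.44 FPKM in the Nrp-1- libraries. Replicates 3 and 4 of Nrp-1- iTreg were below all other libraries, while replicates 1 and 2 of that group lay within the range of Nrp-1+ iTreg. The log2 fold change was 0.20 with a 95% interval from -0.11 to 0.51 (adjusted p = 0.274 by limma, exact permutation p = 0.286), so a difference of the size seen for Cxcr4 could not be told from none. It was 0.08 without replicate 4 of Nrp-1- iTreg and 0.29 without replicate 2 of that group, past the threshold in neither.

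Ccr2, the receptor for Ccl2, is known from inflammatory monocytes and activated T cells. It was at 1.04, 1.09, 1.34 and 1.30 FPKM in the Nrp-1+ libraries and at 1.07, 1.25, 1.01 and 0.899 FPKM in the Nrp-1- libraries, and the groups overlapped. The log2 fold change was 0.09 with a 95% interval from -0.10 to 0.28 (adjusted p = 0.416 by limma, exact permutation p = 0.200). It was 0.05 without replicate 4 of Nrp-1- iTreg and 0.01 with quantile normalization. Ccr2 had the lowest mean of the receptors that entered the test (1.12 FPKM), and Ccr6 the highest of those that did not (0.527 FPKM). Of 8 myeloid markers, 6 had a mean under 1 FPKM, among them Lyz2 (at most 0.352 FPKM in any library), Csf1r (at most 0.0656 FPKM) and Cd68 (at most 1.57 FPKM). Ly6c2, a marker of inflammatory monocytes that some T cells also carry, was at 1.60 to 1.96 FPKM among the Nrp-1+ and 1.25 to 1.86 FPKM among the Nrp-1- libraries, above Ccr2 in its means of 1.76 and 1.52 FPKM (adjusted p = 0.233 by limma). The summed FPKM of 8 myeloid markers was 8.64 to 9.49 in the Nrp-1+ libraries and 7.69 to 9.23 in Nrp-1- iTreg, mostly from Itgam, which was higher in Nrp-1+ iTreg (6.70 against 5.56 FPKM, adjusted p = 0.00136 by limma). The part of these markers in the Ccr2 value was not tested.

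Ccr6, the receptor for Ccl20, is known from Th17 cells and from regulatory T cells that follow them. Its FPKM was low in every library, at 0.817, 0.709, 0.746 and 0.636 in the Nrp-1+ libraries and at 0.348, 0.246, 0.454 and 0.263 in Nrp-1- iTreg. Every Nrp-1+ library was nonetheless above every Nrp-1- library, and the mean was 2.22 times that of Nrp-1- iTreg, a larger ratio than in any of the 6 receptors tested. With all 16289 genes above 0 somewhere fitted together the log2 fold change was 0.38 (standard error 0.06, adjusted p = 0.00195 by limma), and 5 of the 9 receptors were called higher and 1 lower in it. Over all genes of that fit 14.1% were called higher and 11.7% lower, 25.8% in all. Ccr6 overlaps the long noncoding RNA gene Gm33799 in the RefSeq annotation, so its low signal is uncertain in the same way as that of Ccr9.

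Cxcr6, the receptor for Cxcl16, is known from T cells that reside in tissues. It was at 0.461, 0.230, 0.403 and 0.609 FPKM in the Nrp-1+ libraries and at 0.257, 0.165, 0.214 and 0.120 FPKM in the Nrp-1- libraries. Replicate 2 of Nrp-1+ iTreg was below replicate 1 of Nrp-1- iTreg, so the groups overlapped, although the ratio of the means was 2.25. In the same unfiltered fit the log2 fold change was 0.26 (standard error 0.08, adjusted p = 0.0495 by limma), and the exact permutation p was 0.0571. The call was lost under 11 of 16 alternatives, among them 7 of the 8 that leave out 1 library. Cxcr6 lies within the span of Fyco1, which went the other way (2.75 against 3.41 FPKM), and reads in shared stretches are uncertain.

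Cxcr5, the receptor for Cxcl13, is known from follicular helper T cells and B cells. Its values were 0.424, 0.825, 0.581 and 0.630 FPKM in the Nrp-1+ libraries and 0.441, 0.366, 0.499 and 0.379 FPKM in the Nrp-1- libraries. The lowest Nrp-1+ library lay within the range of Nrp-1- iTreg (log2 fold change 0.18, adjusted p = 0.119 by limma over all genes with any value, exact permutation p = 0.0857). Leaving that library out (Nrp-1+ replicate 1) gave an adjusted p of 0.0322, while leaving out any other library gave 0.130 to 0.238, and without Nrp-1+ replicate 2 the log2 fold change was 0.12. The B-cell markers Ms4a1 and Pax5 were listed at 0 in all 8 libraries, whereas Cd79b was at 5.09 and 4.58 FPKM in the means of the groups, and the 5 B-cell markers summed to 5.21 to 5.91 FPKM in the Nrp-1+ libraries and 4.01 to 5.80 FPKM in the Nrp-1- libraries. The span of Cxcr5 overlaps that of Bcl9l, which was at 22.0 and 20.5 FPKM, so part of the low Cxcr5 signal is uncertain.

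The FPKM values of 5 receptors could be traced to whole fragments, since after correction for relative depth they were whole multiples of a fixed step in all 8 libraries within 0.05. Ccr8 rested on 418 to 609 fragments per library in the Nrp-1+ libraries and on 256 to 432 in Nrp-1- iTreg. Ccr2 rested on 72 to 113 and 57 to 92 fragments, Cxcr3 on 65 to 91 and 40 to 90, Cxcr5 on 21 to 41 and 18 to 27, and Cxcr6 on 8 to 21 and 4 to 11. For Cxcr6 the 4 libraries of a group thus held 62 and 27 fragments in all. Counting alone would give Cxcr6 a coefficient of variation of about 25.4% and 38.5% in the 2 groups, beside 36.9% and 31.3% observed, and Ccr8 4.57% and 5.48%, beside 8.31% and 5.11%. In Nrp-1- iTreg the spread of Cxcr3 (27.7%) was more than 2 times that of counting (12.5%). These figures cover counting error only. The other 4 receptors did not fall on whole steps in a search that allowed at most 300 fragments in the library with the fewest. Whether a receptor as abundant as Cxcr4 lay beyond that limit was not tested.

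**Figure D3:**
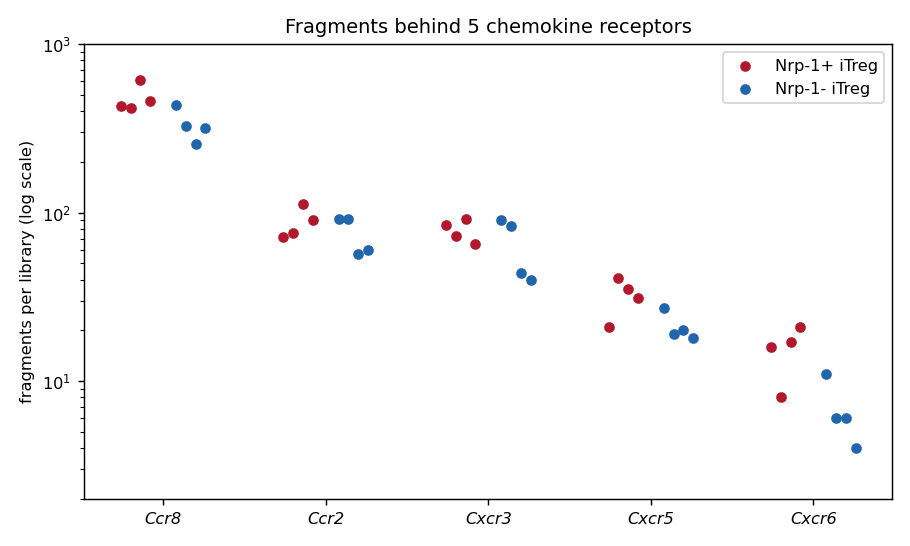
Fragments per library behind the 5 receptors whose FPKM were whole multiples of a fixed step, on a log scale and not corrected for depth, with Nrp-1+ iTreg in red and Nrp-1- iTreg in blue. Each point is 1 library. Ccr8 rests on 256 to 609 fragments per library and Cxcr6 on 4 to 21.

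Most of the other chemokine receptors were hardly present. Of 14 further receptors, only Ccr7, which binds Ccl19 and Ccl21 and guides T cells into lymph nodes, had a mean of at least 1 FPKM. It was at 431 to 446 FPKM in the Nrp-1+ libraries and 467 to 479 FPKM in the Nrp-1- libraries, hence lower in Nrp-1+ iTreg (log2 fold change -0.12, adjusted p = 0.00239 by limma), and at more than 6 times the level of Cxcr4. Ccr3 and the atypical receptors Ackr1 and Ackr3 were listed at 0 in all libraries. Cx3cr1, the fractalkine receptor, was named after its values were seen. It was at 0.414 to 0.847 FPKM in the Nrp-1+ libraries and 0.153 to 0.372 FPKM in the Nrp-1- libraries, from 181 and 69 fragments in all (adjusted p = 0.0191 by limma over all genes with any value).

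Chemokines themselves were scarce in both subsets. Of 35 ligand genes, 14 were listed at 0 in all libraries and 4 had a mean of at least 1 FPKM, namely Ccl5, Ccl25, Ccl27a and Xcl1. None of the 4 passed the test by limma, none had an unadjusted p under 0.05, and the groups overlapped for each. Of all genes tested, 40.9% were called and 39.5% did not overlap. Ccl25, the ligand of Ccr9, was at 1.72 FPKM in the Nrp-1+ libraries and 1.42 FPKM in the Nrp-1- libraries (adjusted p = 0.135). Ccl1, Ccl17, Ccl22 and Cxcl12, ligands of Ccr8, Ccr4 and Cxcr4, did not exceed 0.649 FPKM in any library.

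Of 20 listed genes that carry the signal of these receptors, 19 had a mean of at least 1 FPKM, while the Gi α subunit gene Gnai1 was listed at 0 in 7 of 8 libraries. Of the 19 tested, 4 were higher, 6 lower and 9 not past the test in Nrp-1+ iTreg, with a median log2 fold change of -0.01, where 20.9% of all genes tested were called higher and 20.0% lower. The higher ones with the largest changes were Pik3cg, the catalytic subunit of PI3Kγ (0.20, 16.2 against 13.9 FPKM, adjusted p = 0.00219 by limma), the G protein β subunit Gnb2 (0.17) and Gnai2, the main Gi α subunit of lymphocytes (0.09, 437 against 410 FPKM, adjusted p = 0.0237). The lower ones with the largest changes were Pik3r5, the regulatory subunit that partners Pik3cg (-0.32, 24.4 against 30.7 FPKM, adjusted p = 2.72e-05), the kinase Ptk2b (-0.20) and the phospholipase Plcb2 (-0.17). The paired subunits Pik3cg and Pik3r5 thus moved in opposite directions, each without overlap between the groups.

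Of 12 tested genes that end receptor signalling, 1 was higher and 5 were lower in Nrp-1+ iTreg, beside the same 20.9% and 20.0% of all genes tested. The receptor kinase Grk2, listed under its older symbol Adrbk1, was at 153 FPKM against 170.1 FPKM (log2 fold change -0.15, adjusted p = 0.00111 by limma), and the arrestin Arrb1 at 15.2 against 17.1 FPKM (-0.15, adjusted p = 0.00267). Rgs14 (-0.13), Rgs10 (-0.09) and Rgs19 (-0.07) were lower and Rgs3 (0.11) was higher, all of them regulators that speed the shutdown of G proteins. The median log2 fold change of the 12 was -0.05. Among 5 tested transcription factors known to define helper lineages, Foxp3 was higher (115.8 against 108.8 FPKM, adjusted p = 0.0245). Tbx21, Gata3, Bcl6 and Maf did not pass.

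**Figure D4:**
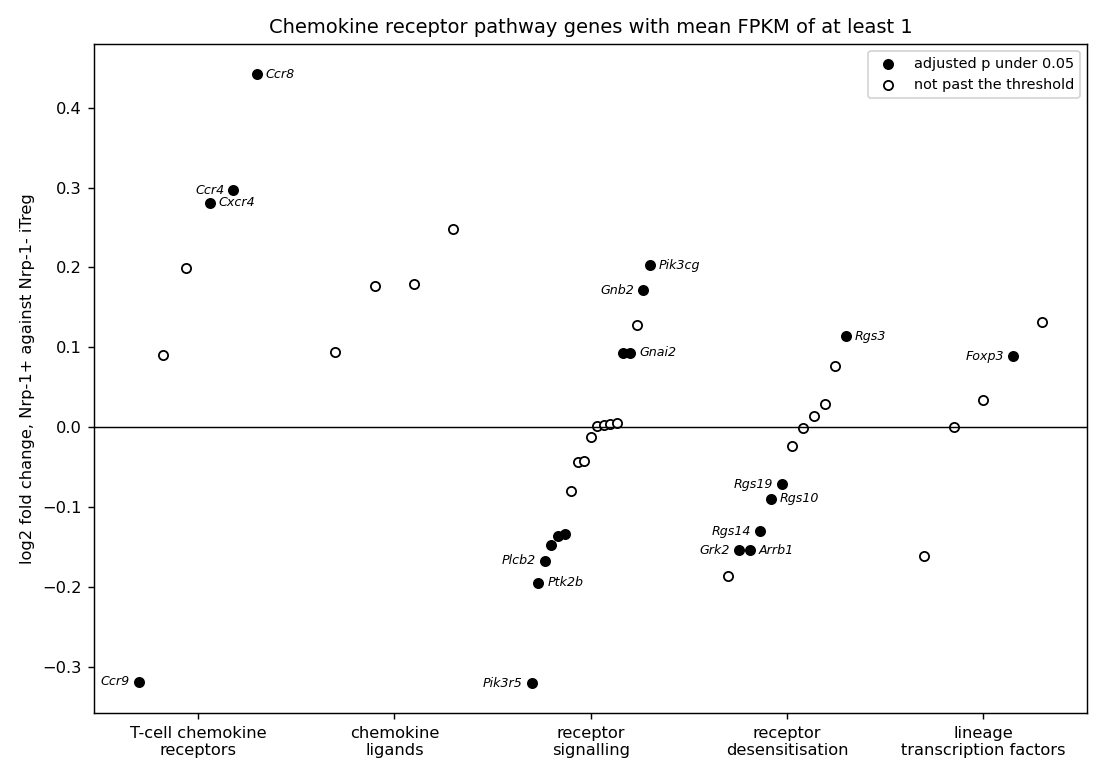
Log2 fold change between Nrp-1+ and Nrp-1- iTreg on the log2(FPKM + 1) scale for genes with a mean of at least 1 FPKM. The groups are the receptors described here, chemokine ligands, receptor signalling, receptor desensitisation and lineage transcription factors, each sorted by value. Ccr7 and the cell-type markers are not drawn. Filled points passed an adjusted p under 0.05 by limma. Ccr8 has the largest increase drawn (0.44), and Pik3r5 and Ccr9 have the largest decreases (both -0.32).

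Markers of other cell types were mostly at or near 0. The 5 dendritic-cell markers summed to 0.224 to 0.377 FPKM in the Nrp-1+ libraries and 0.125 to 0.222 FPKM in the Nrp-1- libraries, and the 4 NK-cell markers to 0.751 to 1.07 FPKM and 0.464 to 0.808 FPKM. Of the CD8 T-cell markers, Cd8a did not exceed 0.111 FPKM, while Cd8b1 was lower in Nrp-1+ iTreg (7.86 against 10.0 FPKM, adjusted p = 0.0119 by limma). Among the T-cell and regulatory T-cell markers, Il2ra (log2 fold change 0.22) and Foxp3 (0.09) were higher and Cd3d (-0.18), Ctla4 (-0.16) and Cd3g (-0.11) lower in Nrp-1+ iTreg. Cd3e and Cd4 did not pass the test. Cd3g overlapped between the groups and had an adjusted p of 0.0560 by limma over all genes with any value. Over all genes tested, 20.9% were called higher and 20.0% lower. The part of these markers in the receptor values was not tested.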

How the data were processed

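RNA sequencing libraries of Nrp-1+ iTreg (4) and of Nrp-1- iTreg (4) were used, with groups and replicate numbers from the sample labels. The values are FPKM from Cufflinks, which the authors deposited by gene symbol after read processing in CLC Genomics Workbench. The submitters' processing notes name GRCm38 and mm10, while aligner settings, annotation and strand handling are not given in the sources used here. The methods name a directional kit and the labels a different one.

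Genes with a mean of at least 1 FPKM were tested on log2(FPKM + 1), a scale that understates the change of low genes, with limma 3.58.1 (eBayes with trend) in R 4.3.3 and Benjamini-Hochberg adjustment over all genes tested. No count model was used. Receptors below the filter were read from the same fit of all genes with any value. Single genes were also tested by an exact two-sided permutation of group means over 70 splits. The relative depth came from genes under 0.3 FPKM. Tested on simulated data for 10467 genes, 200 of them changed, the fit called 98% of those with a log2 change of 1 and 75% of those with 0.3, and made 8 false calls. The simulated noise was normal and independent between genes, and 4282 genes were called in the real data. These rates therefore need not hold for the real data. Other steps ran in Python 3.11.15 (scipy 1.17.1, numpy 2.4.6, figures in matplotlib 3.10.9).

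All 9 receptors were named. From each further list, every gene past the test was named or, where more than 6 passed, the 3 largest increases and 3 largest decreases. For each tested receptor, the 2 genes with the most similar profile were also named. The receptors and lists were chosen with earlier results of these data known. The alternatives were other pseudocounts, filters, scalings and variance models, the replicate number as a block, an exact Mann-Whitney test, and each library left out in turn. Older symbols were matched through RefSeq. Values of a few listed genes are not reported here.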

Additional observations from a re-analysis of the deposited data

Results flagged for a closer look

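The relative depth of replicate 3 of Nrp-1+ iTreg was 1.22, against 0.994 to 1.00 in the other 3 libraries of its group, which set it far from them. This library also held the highest Cxcr4 (72.3 FPKM) and Ccr8 (25.6 FPKM). Without it, the log2 fold change was 0.26 for Cxcr4, 0.39 for Ccr8, 0.31 for Ccr4 and -0.33 for Ccr9, with adjusted p values by limma of 0.00169, 0.00119, 0.00158 and 0.0489. The search covered 20 groups of 4 values (9 receptors and the relative depth in both subsets), of which chance gives about 1, and 1 was found. No receptor level in a library stood apart in this search.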

How the results depend on the processing

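The log2 fold changes of Cxcr4 (0.26 to 0.30), Ccr8 (0.39 to 0.48) and Ccr4 (0.27 to 0.32) kept their direction in all 18 alternatives run and an adjusted p under 0.05 in the 17 that used limma. The exact Mann-Whitney test was read at an unadjusted p, so there a call says no more than that the groups did not overlap. Ccr2 and Cxcr3 stayed short of the threshold in all 17 of theirs. None of the 9 receptors changed direction. Over the 8 fits that each lacked 1 library, the number of receptors called higher was 3 throughout and the number called lower was 0 or 1, because the log2 fold change of Ccr9 ranged from -0.39 to -0.26 and its adjusted p from 0.00855 to 0.0644. With a filter at a mean of 5 FPKM the number called lower was 0, since Ccr9 was then not tested. At a pseudocount of 0.1 the changes of Ccr9 and Ccr8 were alike in size (-0.46 and 0.46), and those of the receptors too low to read were larger than at 1, at 0.97 for Ccr6, 0.83 for Cxcr6 and 0.43 for Cxcr5 in place of 0.38, 0.26 and 0.18. With no filter 5 receptors were called higher, Ccr6 and Cxcr6 having entered. Cxcr6 lost its call with quantile normalization (adjusted p = 0.0700), eBayes without trend (0.0551) and the replicate block (0.0928). With the replicate block 3 receptors were again called higher and 1 lower (Ccr9, adjusted p = 0.0477), and 1931 genes were higher and 1675 lower in place of 2189 and 2093. Same-numbered libraries did not deviate together (mean correlation -0.26, or -0.07 without short RNA genes, and 0 of 8 libraries were closest to their own number), so the number was not taken as a pairing. Among the 5 receptors with traced fragments, Cxcr5 and Cxcr6 had the fewest, with 18 to 41 and 4 to 21 per library.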

Other observations

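Of the 9 receptor genes, 6 lie on chromosome 9 (GRCm38.p6), and Ccr9, Cxcr6 and Ccr2 stand there in a cluster with Xcr1, Ccr1, Ccr1l1 and Ccr3, from position 123767211 (the start of Ccr9) to 124109140 (the end of Ccr2). Ccr9 and Fyco1, the only gene described there that is no receptor, were lower in Nrp-1+ iTreg (Fyco1 log2 fold change -0.23, adjusted p = 0.00543 by limma), Cxcr6, too low to read, had a higher mean, Ccr2 overlapped between the groups, and Ccr1l1 and Ccr3 were listed at 0 in all 8 libraries.

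The genes whose log2(FPKM + 1) ran most like that of a receptor over the 8 libraries are given as a description, since all were measured over the same split into groups. They were Skp2 (Pearson r = 0.993) and Cryl1 (0.985) for Cxcr4, Crip2 and Naa38 (both 0.987) for Ccr8, and Tnfsf4 (0.994) and P2ry1 (0.991) for Ccr4. Tnfsf4, the OX40 ligand, was at 15.8 FPKM in the Nrp-1+ libraries and 8.54 FPKM in the Nrp-1- libraries, and Skp2, a ubiquitin ligase subunit that acts in the cell cycle, at 4.32 and 2.50 FPKM. For Ccr9 they were Smad4 (0.981) and Lamtor3 (0.980), for Cxcr3 1190002N15Rik (0.967) and Xpo7 (0.950), and for Ccr2 Pcyt2 (0.950) and Sfpq (0.927).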
